A study of Mus musculus with 4 samples.

Results

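Fdxr, Fdx1, Por and Cyb5a, the genes of the redox proteins that hand electrons to the cytochromes P450 of steroid synthesis, were taken by symbol from a count table of 28595 mouse genes. All 4 genes were in the table, and 3 of them were tested with 5182 genes in all, because Por was too thinly counted. Transcripts were counted in 10 µm testis sections by photo-isolation chemistry, in which ultraviolet light frees blocked cDNA ends so that a library forms only from the irradiated area. The groups, with 3 libraries each and 12 in all, were H3t knockout (KO) sections irradiated over their whole area, wild-type (WT) sections irradiated likewise, KO sections irradiated only at Leydig cells, and WT sections irradiated only at Leydig cells. The KO mice carry a deletion of H3t, a testis variant of histone H3, and their spermatogenesis is disrupted. WT titles carry the word young, while no age is given for KO mice in the sources used here, so age and genotype cannot be told apart. Each group was also prepared as 1 library pool, so pool and group cannot be told apart. Which libraries came from which animals is not stated in the labels, and p-values thus cover the spread among libraries, which may be technical.

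Cytochromes P450 need electrons from NADPH for each reaction they catalyse, and their location decides the carrier. In mitochondria, ferredoxin reductase (Fdxr) takes electrons from NADPH and ferredoxin 1 (Fdx1), a small iron-sulfur protein, ferries them to Cyp11a1, which cuts the side chain of cholesterol to give pregnenolone. In the endoplasmic reticulum, cytochrome P450 oxidoreductase (Por) serves all microsomal P450 enzymes, among them Cyp17a1, whose hydroxylase and lyase steps lead to androgens. Cytochrome b5 (Cyb5a) enhances the lyase step of Cyp17a1 and also serves fatty acid desaturation and other reactions. These carriers work in many cell types, so they are not specific markers of Leydig cells.

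In the GRCm38 build, Fdxr (ENSMUSG00000018861) lies on the minus strand of chromosome 11 at 115268024 to 115277050, and Fdx1 (ENSMUSG00000032051) on the minus strand of chromosome 9 at 51943306 to 51963556. Por (ENSMUSG00000005514) lies on the plus strand of chromosome 5 at 135670033 to 135735326. RefSeq's promoter table for GRCm38.p6 matched 3 of the 4 genes, and the 250 bases before each start are printed 5′ to 3′ on the gene's strand because Fdx1 and Fdxr are mitochondrial partners whose transcripts moved in the same direction in sections. The windows are chr9:51963603-51963852 for Fdx1, chr11:115276970-115277219 for Fdxr and chr5:135688895-135689144 for Por. RefSeq's starts differ from the gene bounds given above. The Por window lies inside those bounds, the Fdxr window overlaps them at 115277050, and the Fdx1 window lies wholly outside them. Capitals mark matches, on either strand, to CAAGGTNA (the core bound by the steroidogenic regulator Nr5a1, with N any base) or GGGCGG (the GC box), and TGACGTCA (the cyclic AMP response element) was also searched. The motifs do not overlap each other in these windows.
Fdx1: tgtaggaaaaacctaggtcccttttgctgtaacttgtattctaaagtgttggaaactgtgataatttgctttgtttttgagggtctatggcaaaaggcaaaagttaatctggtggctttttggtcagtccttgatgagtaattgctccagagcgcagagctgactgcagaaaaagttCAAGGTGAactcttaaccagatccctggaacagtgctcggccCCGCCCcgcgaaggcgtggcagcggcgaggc
Fdxr: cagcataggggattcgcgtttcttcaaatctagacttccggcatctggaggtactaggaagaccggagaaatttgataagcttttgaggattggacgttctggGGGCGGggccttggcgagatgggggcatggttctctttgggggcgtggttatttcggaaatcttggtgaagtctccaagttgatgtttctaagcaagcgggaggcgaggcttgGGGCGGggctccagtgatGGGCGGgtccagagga
Por: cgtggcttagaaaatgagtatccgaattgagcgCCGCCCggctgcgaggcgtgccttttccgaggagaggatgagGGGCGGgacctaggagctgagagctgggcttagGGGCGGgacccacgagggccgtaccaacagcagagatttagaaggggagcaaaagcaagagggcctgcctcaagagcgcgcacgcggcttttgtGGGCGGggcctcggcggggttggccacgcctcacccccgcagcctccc
Fdx1 held 1 match to CAAGGTNA, at -73 to -66 from the start, and 1 to GGGCGG, which reads CCGCCC on the strand shown. Fdxr held 3 matches to GGGCGG and Por held 4, and neither held CAAGGTNA. None of the 3 windows held TGACGTCA. Over 32851 promoter windows of the same length, 3.36% held CAAGGTNA, 32.7% held GGGCGG and 1.55% held TGACGTCA. A match is a description of the letters and not of a bound site.

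Libraries of entire sections held between 247539 and 566527 counts, and Leydig-targeted libraries held between 5947 and 54882, so 1 count weighs far more in the Leydig-targeted values. Values are CPM, counts scaled to the library's total, and the intervals quoted are exact 95% intervals that cover counting error only. Germ cell transcripts nearly vanished in KO, with spermatid markers at 0.0176% to 0.0932% of counts in KO sections and 2.90% to 5.49% in WT sections. The Leydig identity list (13 of 15 genes in the table) held 4.72% ± 0.708 in KO sections and 0.657% ± 0.251 in WT sections (SD, n = 3 each), and the Sertoli list held 1.74% ± 0.0430 and 0.536% ± 0.164. In Leydig-targeted libraries the Leydig identity list held 6.64% ± 0.466 in KO and 2.16% ± 0.908 in WT, above the entire sections of the same genotype, while spermatid markers held 0.00713% ± 0.00621 in KO and 2.16% ± 0.745 in WT. The WT Leydig-targeted libraries therefore carried as large a share of spermatid as of Leydig identity counts. In such bulk samples, fewer cells of a type and less RNA per cell cannot be told apart.

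Transcripts of the mitochondrial pair took a larger share of counts in KO sections. Fdxr had 46.2, 73.9 and 49.7 CPM in KO sections (22, 29 and 16 counts), against 8.83, 5.74 and 12.1 CPM in WT sections (5, 3 and 3 counts). Every KO library stood well above every WT library. Fdx1 had 135, 112 and 118 CPM in KO sections (64, 44 and 38 counts), against 30.0, 36.4 and 20.2 CPM in WT sections (17, 19 and 5 counts). The KO values were close together, and again the groups did not overlap; of all genes tested, 39.6% had every KO section above every WT section and 36% had every one below. The ratio of pooled CPM (a group's summed counts over its summed library totals), KO over WT, was 6.84 for Fdxr (3.59 to 14.4 by counting error) and 4.001 for Fdx1 (2.81 to 5.80). With library composition adjusted by trimmed means (TMM scaling), which puts the median of all tested genes at -0.35 on the log2 scale, edgeR's quasi-likelihood test gave Fdxr a log2 fold change of 2.12 ± 0.60 (SE; adjusted p = 0.000981) and Fdx1 1.41 ± 0.48 (adjusted p = 0.00645). Without WT section replicate 3 the Fdx1 call was lost, with a log2 fold change of 1.25 and an adjusted p of 0.0596.

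The microsomal partners differed in how well they were counted. Cyb5a (ENSMUSG00000024646) lies on the plus strand of chromosome 18, at 84838704 to 84879871 in GRCm38. Cyb5a had 507, 543 and 379 CPM in KO sections (241, 213 and 122 counts), against 102, 61.2 and 101 CPM in WT sections (58, 32 and 25 counts). The lowest KO library was more than 3 times the highest WT library. Its ratio of pooled CPM was 5.63 (4.60 to 6.94), and it rose by 1.87 ± 0.46 on the log2 scale (adjusted p = 0.000144). Por had 16.8, 7.65 and 3.11 CPM in KO sections (8, 3 and 1 counts), against 3.53, 1.91 and 4.04 CPM in WT sections (2, 1 and 1 counts). These groups overlapped, since the third KO library lay below 2 of the WT libraries. The ratio of pooled CPM was 3.37 (1.02 to 14.3) on 12 KO and 4 WT counts. Por reached the filter level of 66.1 CPM in 1 library only, where 3 are required, and in a fit without the filter its log2 fold change was 1.33 ± 0.87 (adjusted p = 0.294).

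All 3 tested partners were called higher in KO sections, in a comparison where 61.6% of all genes tested were called, 22.6% of all genes higher and 39.1% lower. Calls depended on what the libraries were scaled to. Of all genes called, 36.6% were higher with TMM, against 52.2% when only library size was used, 45.2% when TMM was computed over all genes and 0.377% when each library was scaled to its summed steroid-route and Leydig identity counts. In that Leydig-based scaling, which sets each partner against the summed counts of those lists, no partner was called. The direction flipped for Cyb5a (-0.32, adjusted p = 0.610) and Fdx1 (-0.87, adjusted p = 0.167), while Fdxr was at 0.02 (adjusted p = 0.982). Markers of other cells moved in the same direction, with 10 of 12 Sertoli and 8 of 8 macrophage markers tested called higher in KO sections. The macrophage list held 0.150% to 0.375% of counts in KO sections and 0.0243% to 0.0545% in WT sections, with none of its 12 genes at 0 in either. The Sertoli list held 1.71% to 1.79% in KO sections and 0.362% to 0.687% in WT sections, also with none of its genes at 0. The part of these cells in the partners' values was not tested.

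**Figure D1:**
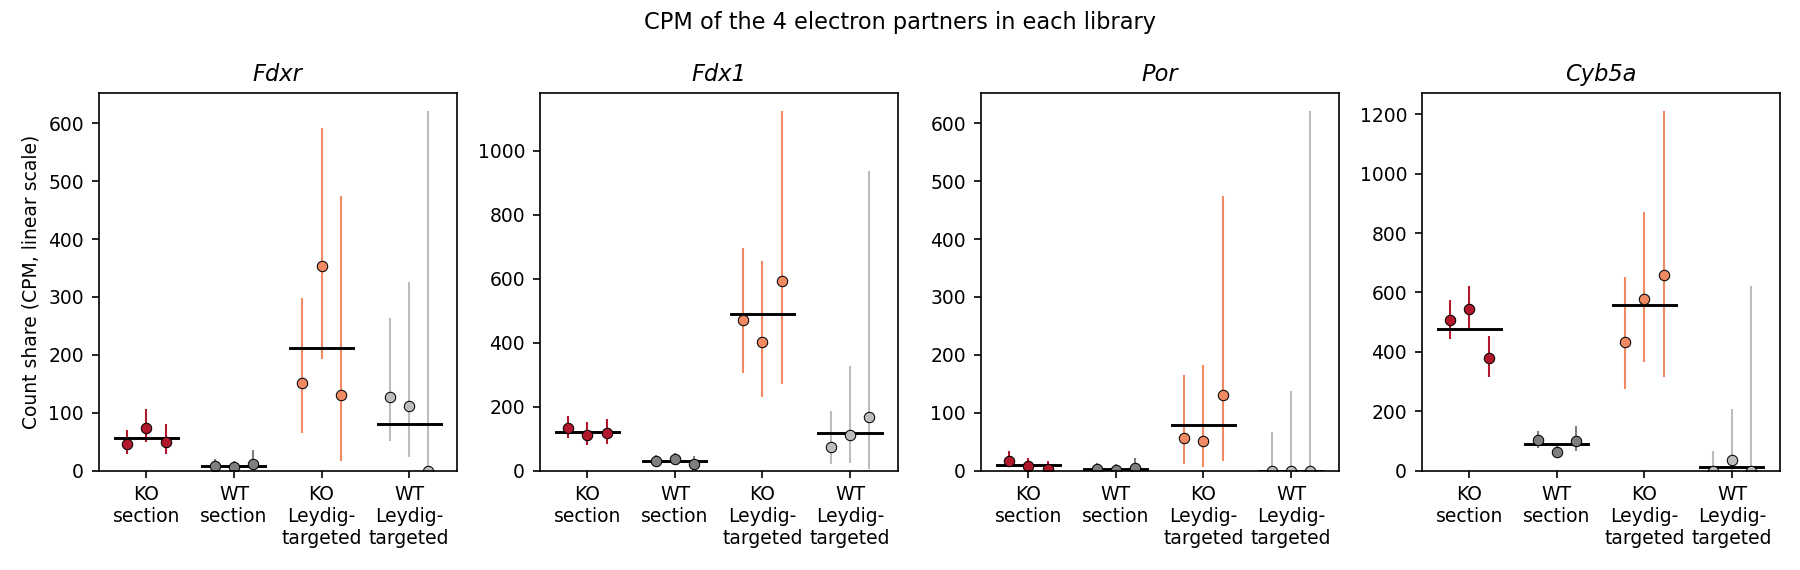
CPM (linear scale) of Fdxr, Fdx1, Por and Cyb5a in each library, with KO beside WT for entire sections and then for Leydig-targeted libraries. Points are libraries with exact 95% counting intervals and black lines are group means; Fdxr, Fdx1 and Cyb5a do not overlap between KO and WT sections, and Cyb5a has 1 count in all 3 WT Leydig-targeted libraries.

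The steroid genes that the partners serve were also higher in KO sections. Cyp11a1 rose by 2.94 ± 0.54 on the log2 scale (adjusted p = 2.93e-07) and Cyp17a1 by 1.59 ± 0.45 (adjusted p = 0.000904), although Cyp17a1 was at -0.63 (adjusted p = 0.336) in the Leydig-based scaling. Star, which brings cholesterol into mitochondria, rose by 2.23 ± 0.48, Hsd3b1, which forms progesterone and androgen precursors, by 2.95 ± 0.49, and Hsd17b3, the last step to testosterone, by 3.35 ± 0.56. All 8 tested genes of the steroid route were called higher in KO sections, beside 22.6% of all genes, with a median log2 fold change of 2.67. None was called in the Leydig-based scaling, where their median was 0.50. These genes are part of the sum used in that scaling, so their values there were partly fixed in advance.

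In Leydig-targeted libraries Cyb5a and Fdx1 were called higher in KO, and Fdxr did not pass the test. Cyb5a had 434, 580 and 658 CPM in KO (23, 23 and 10 counts), against 0, 37.2 and 0 CPM in WT (0, 1 and 0 counts). A count of 0 allows up to 54.7 CPM in WT replicate 1 and up to 504 CPM in replicate 3, so the shallowest WT library alone could not have shown a low level. The ratio of pooled CPM was 45.5, with a counting interval of 7.84 to 1829 because it rests on 1 WT count. Without WT Leydig-targeted replicate 2, the library with that count, Cyb5a in KO was 10.5-fold above a floor of 3 counts over the other WT libraries. That value takes the KO counts as exact, so it is no lower bound. The edgeR call had an adjusted p of 5.60e-05, with a fitted log2 fold change of 5.22 ± 1.09 that depends on the prior count. It held under every alternative run, the Leydig-based scaling included (3.61), with adjusted p from 3.18e-06 to 0.0219.

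Fdx1 had 472, 403 and 592 CPM in KO Leydig-targeted libraries (25, 16 and 9 counts), against 72.9, 112 and 168 CPM in WT (4, 3 and 1 counts). The groups did not overlap, as for 13.5% of all genes tested with KO higher and 11.2% with KO lower, and the ratio of pooled CPM was 5.08 (2.39 to 12.4). Fdx1 rose by 2.11 ± 0.70 on the log2 scale (adjusted p = 0.0133). The call was lost without KO replicate 3 (1.70, adjusted p = 0.0542), without WT replicate 1 (1.69, adjusted p = 0.178), with library sizes recomputed over the tested genes (1.65, adjusted p = 0.0617) and in the Leydig-based scaling (0.46, adjusted p = 0.668). Fdxr had 151, 353 and 132 CPM in KO (8, 14 and 2 counts), against 128, 112 and 0 CPM in WT (7, 3 and 0 counts). The lowest KO library lay just above the highest WT library, and the ratio of pooled CPM was 1.95 (0.899 to 4.57), or 2.65 between mean CPM. Fdxr did not pass the test, at 0.79 ± 0.72 (adjusted p = 0.437), and was at -0.90 (adjusted p = 0.355) in the Leydig-based scaling. The log2 ratio of Fdx1 to Fdxr counts was 0.95 higher in KO than in WT Leydig-targeted libraries, with overlap (exact permutation p = 0.3; 0.6 adjusted over 20 ratio comparisons), so a difference between them was not shown. Por had 56.6, 50.4 and 132 CPM in KO (3, 2 and 2 counts) and no count in any WT library. Its pooled KO CPM was 1.90-fold above a floor of 3 counts over the WT group, with the KO counts taken as exact. The exact 95% counting interval of the ratio starts at 1.17. Without the filter its adjusted p was 0.0999.

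Thus 2 of 3 tested partners were called higher in KO Leydig-targeted libraries, where 28.5% of all genes were called, 7.55% of all genes higher and 20.9% lower, and where the median of all genes was -0.28. Of the genes called, 26.5% were higher with TMM, 12.6% with library sizes recomputed over the tested genes, 48.1% with TMM over all genes and 1.28% in the Leydig-based scaling. Among the steroid genes, Hsd3b1 rose by 2.13 ± 0.49, Hsd17b3 by 1.85 ± 0.65 and Cyp17a1 by 1.51 ± 0.45 (adjusted p = 0.00555), with 4 of 8 steroid-route genes tested called higher. In the Leydig-based scaling Hsd3b1 was at 0.47 (adjusted p = 0.571), Hsd17b3 at 0.13 (0.906) and Cyp17a1 at -0.094 (0.920), with 0 of the 8 called higher and 1 lower, a median of 0.018. Steroid-route counts are part of the sum used in that scaling, so the values of these genes there were partly fixed in advance. Star was at 0.91 ± 0.55 (adjusted p = 0.214), or -0.70 in the Leydig-based scaling, and was called with TMM over all genes (adjusted p = 0.0347). Cyp11a1 was at -0.34 ± 0.84 (adjusted p = 0.805) on 11 counts in KO and 9 in WT. Its direction flipped to 0.27 with TMM over all genes and without the filter and was positive without WT replicate 2 or 3 (0.25 and 0.092), while it was called lower in the Leydig-based scaling (-2.05, adjusted p = 0.0491). The Cyp17a1 call was lost without WT Leydig-targeted replicate 1 or 3 (adjusted p = 0.142 and 0.189) and with recomputed library sizes (0.0853), and the Hsd17b3 call without WT section replicate 1 (0.0732), KO Leydig-targeted replicate 3 (0.0985) or WT Leydig-targeted replicate 1 (0.307), in a fit of 6 libraries (0.0754) and with recomputed library sizes (0.104). Macrophage markers were 0.0857% to 0.300% of counts in KO and 0.0261% to 0.0419% in WT Leydig-targeted libraries, with Adgre1 at 0 in KO and H2-Aa, C1qa and Adgre1 at 0 in WT, and their part in the partners' values was not tested.

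**Figure D2:**
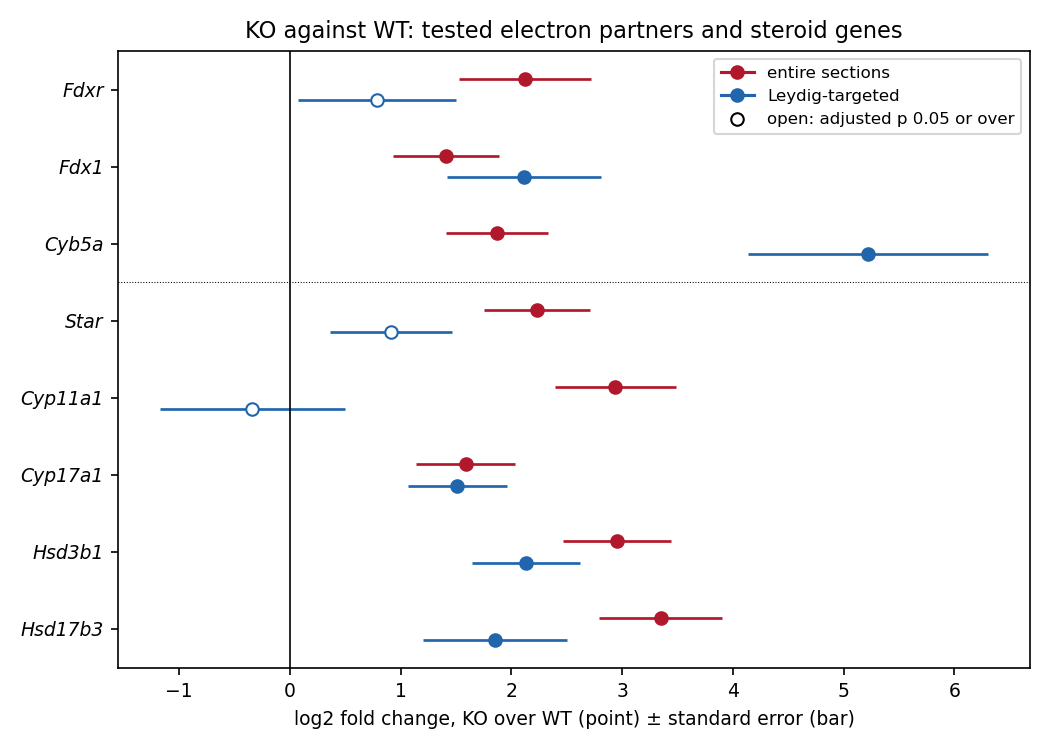
Log2 fold changes, KO over WT, with standard errors, for the 3 tested partners (above the dotted line) and 5 steroid genes in entire sections (red) and Leydig-targeted libraries (blue). Filled points have an adjusted p under 0.05. Cyb5a stands at 1.87 and 5.22, its value in Leydig-targeted libraries resting on 1 WT count. In the Leydig-based scaling, Cyb5a, Fdx1 and Cyp17a1 in sections and Fdxr, Star and Cyp17a1 in Leydig-targeted libraries turn negative. Star and Cyp17a1 are part of the sum used in that scaling.

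Between Leydig-targeted libraries and entire sections of the same genotype, Fdxr was called higher in both genotypes, Fdx1 in KO, and Cyb5a was called lower in WT. For Fdxr, only KO replicate 2 among the sections reached the filter level of 66.1 CPM (73.9 CPM). Fdxr was thus tested only because its Leydig-targeted libraries passed, the side where it was called higher. Its region calls are therefore not independent of the filter. In KO, Fdxr was higher in Leydig-targeted libraries than in entire sections by 1.78 ± 0.56 on the log2 scale (adjusted p = 0.0341) and Fdx1 by 1.73 ± 0.48 (adjusted p = 0.0137), without overlap of the libraries (8.34% of all genes tested had every Leydig-targeted KO library above every section, and 21.8% below). Cyb5a was at -0.04 ± 0.48 (adjusted p = 0.991), a difference whose sign turned with the scaling, with a ratio of pooled CPM of 1.07 (0.800 to 1.41). Por, untested, had a ratio of pooled CPM of 6.43 (2.15 to 17.7) on 7 Leydig-targeted and 12 section counts, or 8.65 between mean CPM. The 2 of 3 partners called stand against 5.44% of all genes called, 1.91% higher and 3.53% lower, and a median of all genes of -0.42. Both calls were fragile, and both were lost in the Leydig-based scaling, without the filter and with TMM over all genes. Fdxr was also lost with recomputed library sizes (adjusted p = 0.0687) and with the replicate block (0.0693). Fdx1 had adjusted p of 0.0750, 0.0698 and 0.0722 without KO section replicates 1, 2 and 3, and 0.0664 without KO Leydig-targeted replicate 1. Fdxr had 0.154 and 0.105 without KO section replicates 1 and 3, 0.409 without KO Leydig-targeted replicate 2, 0.0672 and 0.0583 without WT section replicates 1 and 3, and 0.0520 and 0.0505 without WT Leydig-targeted replicates 1 and 3, while its log2 value stayed between 1.21 and 2.06 under all alternatives.

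In WT, Fdxr was higher in Leydig-targeted libraries by 3.11 ± 0.85 (adjusted p = 0.00466), with 10 Leydig-targeted and 11 section counts behind a ratio of pooled CPM of 13.9 (5.28 to 35.9), or 8.97 as the ratio of mean CPM, which weighs libraries equally. The groups overlapped, since WT Leydig-targeted replicate 3 had no Fdxr count, and without WT Leydig-targeted replicate 1 the call was lost (2.88, adjusted p = 0.161), as it was without the filter (0.0608). Fdx1 was at 1.03 ± 0.79 (adjusted p = 0.380), although its libraries did not overlap (7.78% of all genes tested were higher without overlap in WT, and 21.4% lower). Cyb5a was lower in Leydig-targeted libraries, with 1 count against 115 in sections, a ratio of pooled CPM of 0.133 (0.00333 to 0.753) and an adjusted p of 0.0407. That call is weak: it was lost without any 1 of 8 libraries, with adjusted p of 0.0575, 0.0517 and 0.0510 without KO section replicates 1, 2 and 3, 0.147 and 0.0777 without WT section replicates 1 and 3, 0.0828 without KO Leydig-targeted replicate 3, and 0.403 and 0.117 without WT Leydig-targeted replicates 1 and 3. The call was also lost with DESeq2 (adjusted p = 0.0563), library size alone (0.108), recomputed library sizes (0.102) and the replicate block (0.0569). Without WT Leydig-targeted replicate 2 no count remained, and Cyb5a in WT sections was then 1.74-fold above a floor of 3 counts, with the section counts taken as exact. Por had no count in WT Leydig-targeted libraries and 4 in WT sections, too few for a fold. In WT, 15.6% of all genes were called, 3.22% higher and 12.4% lower, with a median of -0.67.

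**Figure D3:**
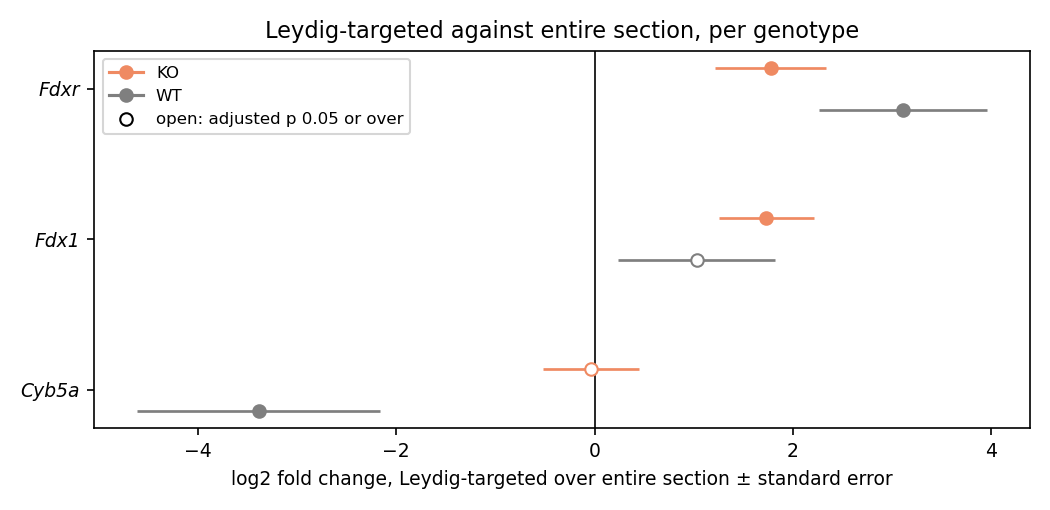
Log2 fold changes, Leydig-targeted over entire section, with standard errors, for the 3 tested partners in KO (orange) and WT (grey). Filled points have an adjusted p under 0.05; Fdxr lies at 1.78 in KO and 3.11 in WT, Fdx1 at 1.73 and 1.03, and Cyb5a at -0.04 and -3.39, the WT value resting on 1 Leydig-targeted count and the sign of the KO value turning with the scaling.

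The KO effect on a partner was not shown to differ between Leydig-targeted libraries and entire sections. By edgeR the genotype by region difference was 3.35 ± 1.37 on the log2 scale for Cyb5a (adjusted p = 0.311), 0.70 ± 0.89 for Fdx1 (adjusted p = 0.880), whose sign turned with library sizes recomputed over the tested genes, and -1.34 ± 0.95 for Fdxr (adjusted p = 0.669). None of the 3 passed, and DESeq2 also called none, while 1 had an unadjusted p under 0.05. Over all genes 0.328% were called, 0.193% higher and 0.135% lower. Ordered by mean CPM, Fdx1, Fdxr and Por were highest in KO Leydig-targeted libraries, at 489 ± 95.5, 212 ± 123 and 79.5 ± 45.1 CPM (SD, n = 3 each). Fdx1 followed with 122 ± 11.6 CPM in KO sections and 118 ± 47.9 in WT Leydig-targeted libraries, which lay within their spread, and was lowest in WT sections at 28.9 ± 8.14. Fdxr had 79.8 ± 69.5 CPM in WT Leydig-targeted libraries and 56.6 ± 15.1 in KO sections, also within their spread, and 8.89 ± 3.19 in WT sections. Cyb5a had 557 ± 113 CPM in KO Leydig-targeted libraries and 476 ± 86.1 in KO sections, which overlapped, then 88.2 ± 23.4 in WT sections and 12.4 ± 21.5 in WT Leydig-targeted libraries. Por had 9.19 ± 6.98 CPM in KO sections and 3.16 ± 1.11 in WT sections, which overlapped.

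Each partner was then set against the enzyme it serves within the same library, a ratio that library scaling does not touch. For Fdx1 per 100 Cyp11a1 counts, KO sections had 133, 110 and 71.7, against 213, 475 and 250 in WT sections. Every KO ratio was below every WT ratio, and the mean log2 ratio was lower by 1.41 (exact permutation p = 0.1, two-sided, the smallest that 3 against 3 libraries can give; 0.286 adjusted over 20 ratio comparisons). In WT sections these ratios rest on 8, 4 and 2 Cyp11a1 counts. In Leydig-targeted libraries the direction was opposite, with a mean log2 ratio 1.65 higher in KO and overlap (exact permutation p = 0.4; adjusted 0.667), on 50 Fdx1 to 11 Cyp11a1 counts in KO and 8 to 9 in WT. Fdxr per 100 Cyp11a1 counts was 45.8, 72.5 and 30.2 in KO sections and 62.5, 75.0 and 150 in WT sections, with overlap. Cyb5a per 100 Cyp17a1 counts was 3.96, 6.84 and 2.75 in KO sections and 3.25, 4.09 and 3.08 in WT sections, with the WT values inside the KO range.

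In Leydig-targeted libraries the Cyb5a ratios rest on few WT counts. Cyb5a per 100 Cyp17a1 counts was 2.09, 2.24 and 3.79 in KO, against 0, 0.350 and 0 in WT. The WT counts of 0 stand beside 299 Cyp17a1 counts in replicate 1, which allow up to 1.003, and beside only 26 in replicate 3, which allow up to 11.5. Summed over libraries, there were 56 Cyb5a to 2396 Cyp17a1 counts in KO and 1 to 611 in WT. The mean log2 ratio, with 0.5 added to each count, was 2.29 higher in KO without overlap (exact permutation p = 0.1, the smallest possible; adjusted 0.286). That separation turned on the added value: with 1 added, the difference was 1.54 (exact permutation p = 0.3) and WT replicate 3, at -4.75, lay inside the KO range of -5.52 to -4.59. Against the whole steroid-route list the Cyb5a ratio was 2.21 higher in KO Leydig-targeted libraries (no overlap, but 1.46 with overlap when 1 was added) and -0.14 in sections (overlap). The Fdx1 ratio to that list was at -0.52 in sections and 0.04 in Leydig-targeted libraries, and the Fdxr ratio at -0.03 and -0.91, all with overlap. With 1 added, the Leydig-targeted values were -0.16 for Fdx1 and, without overlap, -1.20 for Fdxr (exact permutation p = 0.1). Por per 100 Cyp17a1 counts, summed over libraries, was 0.0880 in KO sections and 0.118 in WT sections. Per library the values were 0.132, 0.0963 and 0.0225 in KO sections and 0.112, 0.128 and 0.123 in WT sections. They overlapped, since KO replicate 1 lay above every WT library. With 0.5 added the groups did not overlap, and the mean log2 ratio was lower by 1.08 in KO sections (exact permutation p = 0.1, adjusted 0.286). That separation came from the added value, on 1 to 8 Por counts a library. In Leydig-targeted libraries there were 0.292 Por per 100 Cyp17a1 counts in KO and 0 Por to 611 Cyp17a1 counts in WT.

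**Figure D4:**
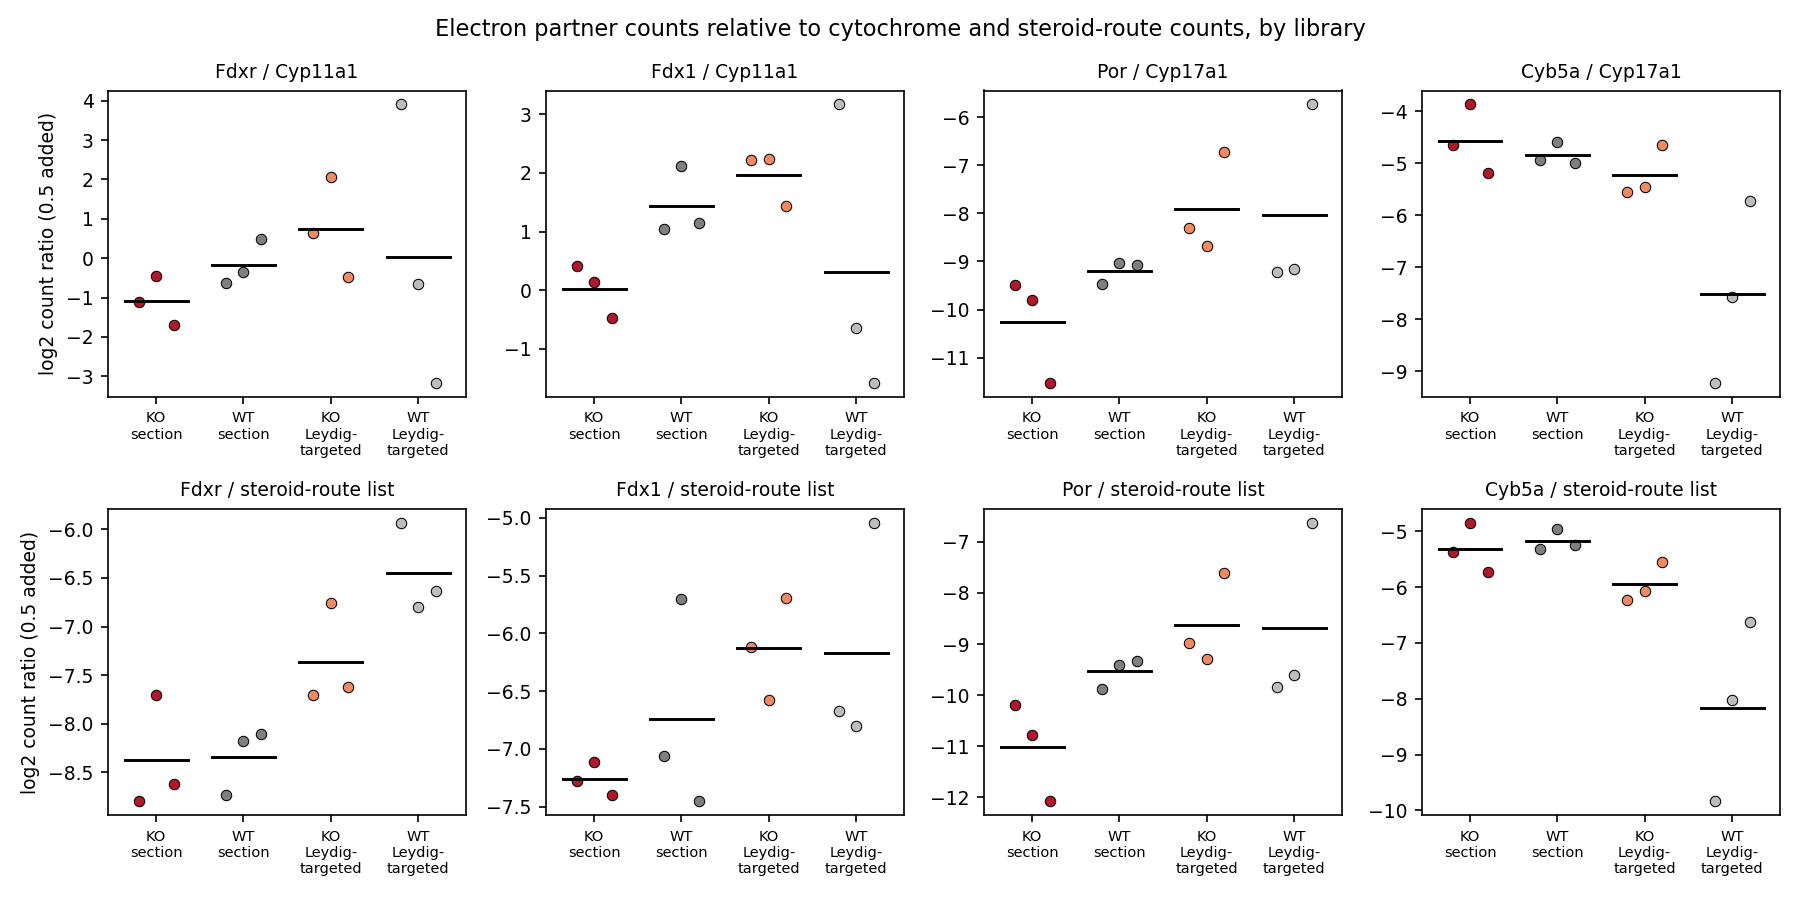
Log2 ratio of each partner's count to the count of Cyp11a1 or Cyp17a1 (upper row) and of the steroid-route list (lower row) per library, with 0.5 added to each count; black lines are group means. Cyb5a over Cyp17a1 lies lowest in the WT Leydig-targeted libraries, 1 of which, with 26 Cyp17a1 counts, sits close to KO, and Fdx1 over Cyp11a1 lies lower in KO sections than in WT sections.

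Other members of the electron transfer and cofactor pathways were read from fixed lists, and in sections those counts were taken with the TMM scaling unless stated. The counts stand beside 22.6% of all genes called higher and 39.1% lower in KO sections, and 7.55% and 20.9% in Leydig-targeted libraries, and are descriptions with no test of the lists. Among other cytochrome b5 proteins, b5 reductases and b5-domain proteins, 16 in the table and 7 tested, 5 were higher and 1 lower in KO sections, with a median log2 fold change of 1.63, or -0.59 with 0 higher and 2 lower in the Leydig-based scaling. Cyb5r3, the reductase that recharges cytochrome b5, rose by 1.97 ± 0.48 (adjusted p = 0.000101; -0.21 in the Leydig-based scaling), as did Nenf, a secreted b5-domain protein (1.98 ± 0.50; -0.19 in the Leydig-based scaling). Pgrmc2, a b5-domain heme chaperone, fell by 1.80 ± 0.45 (adjusted p = 0.000159). In Leydig-targeted libraries 3 of 7 were higher, with a median of 1.71: Pgrmc1, a b5-domain partner of P450 enzymes, by 2.92 ± 0.64 (adjusted p = 0.000156), Cyb5b, the outer mitochondrial membrane cytochrome b5, by 2.53 ± 0.80 (adjusted p = 0.00986), and Fads1, a desaturase with its own b5 domain, by 2.08 ± 0.56 (adjusted p = 0.00200). In the Leydig-based scaling 0 were higher and 2 lower there. Pgrmc2 was at -1.88 ± 0.87 there (adjusted p = 0.0901), and 1 of the 7 was called lower by DESeq2 and with recomputed library sizes. The Fads1 call was lost without WT Leydig-targeted replicate 1 (adjusted p = 0.0596), and the Cyb5b call without KO replicate 1 (0.132) or WT replicate 2 (0.0686).

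Microsomal enzymes that depend on Por outside the steroid route were mixed in direction: of 8 tested, 4 were higher and 1 lower in KO sections, with a median of 1.22, or -0.97 with 0 higher and 3 lower in the Leydig-based scaling. Dhcr7, the last reductase of cholesterol synthesis, rose by 2.53 ± 0.57 (adjusted p = 3.28e-05), Cyp2d22 by 2.06 ± 0.55 (adjusted p = 0.000547; -0.060 in the Leydig-based scaling) and Cyp20a1, an orphan P450, by 1.98 ± 0.61 (adjusted p = 0.00275; -0.16 in the Leydig-based scaling). In Leydig-targeted libraries 2 of 8 were higher. Cyp4v3, a fatty acid hydroxylase, had 21, 1 and 0 counts in KO, mostly from 1 library, and none in WT. It was 5.96-fold above a floor of 3 WT counts, with KO counts taken as exact (counting interval of the ratio from 4.45). Cyp20a1 had 1, 5 and 3 counts in KO and none in WT, 2.44-fold above that floor (interval from 1.60). In the Leydig-based scaling 1 of the 8 was higher there. The Cyp4v3 call was lost without KO Leydig-targeted replicate 1 (adjusted p = 0.433) or WT replicate 1 (0.0640), and the Cyp20a1 call without WT section replicate 1, KO Leydig-targeted replicate 2 or 3, or any WT Leydig-targeted replicate (adjusted p from 0.0591 to 0.244), with DESeq2 (0.0605), without the filter (0.0575), with recomputed library sizes (0.0647) and in the Leydig-based scaling (0.166). Dhcr7 was at 1.88 ± 0.88 (adjusted p = 0.0974), and was called without WT Leydig-targeted replicate 2 (0.0381), with library size alone (0.0498) and with TMM over all genes (0.0217). The other mitochondrial P450 tested, Cyp27a1, a sterol hydroxylase that also takes electrons from ferredoxin, had 18, 26 and 12 counts in KO sections and 4, 1 and 1 in WT sections, and rose by 2.71 ± 0.70 (adjusted p = 0.000288), a call lost in the Leydig-based scaling (0.70, adjusted p = 0.428). In Leydig-targeted libraries Cyp27a1 had 5, 10 and 1 counts in KO and none in WT, 4.33-fold above a floor of 3 WT counts (interval from 3.13). Its call there was lost without KO replicate 2 (adjusted p = 0.0511) or WT replicate 1 (0.120) and in the Leydig-based scaling (0.0732). Lias, the iron-sulfur enzyme of lipoic acid synthesis in that list of 2 tested genes, fell by 0.997 ± 0.43 in sections (adjusted p = 0.0340), a call lost with library size alone (0.380), without the filter (0.325), in a fit of 6 libraries (0.0671), with recomputed library sizes (0.107), with TMM over all genes (0.177), without any 1 section library (adjusted p from 0.0617 to 0.147) and without KO Leydig-targeted replicate 3 or WT Leydig-targeted replicate 1 or 3 (0.0902, 0.150 and 0.147). Lias was at -0.66 ± 0.85 in Leydig-targeted libraries (adjusted p = 0.601), and was called lower there in the Leydig-based scaling (-2.30, adjusted p = 0.0312).

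Of 11 iron-sulfur cluster assembly genes tested, some mitochondrial and some cytosolic, edgeR called 6 lower and none higher in KO sections. Over all genes, 39.1% were called lower and 22.6% higher. The median of the 11 was -1.03, against -0.35 for all genes. At an unadjusted p under 0.05, 7 were lower, and DESeq2 also called 7 lower. The median stayed negative in all scalings, with 2 lower by library size alone and 11 in the Leydig-based scaling. The median of all genes was 0.22 by library size alone and -2.59 in the Leydig-based scaling. Ciapin1, a cytosolic assembly factor, fell by 2.10 ± 0.44 (adjusted p = 7.28e-06), Isca1, of the late mitochondrial assembly steps, by 2.30 ± 0.58 (adjusted p = 0.000211), and Nubp2, a cytosolic scaffold protein, by 1.49 ± 0.49 (adjusted p = 0.00516, or 0.0827 without WT section replicate 1, 0.0770 with library size alone and 0.0646 without the filter). Of 6 heme synthesis genes tested, 5 were higher and none lower in KO sections, with a median of 1.48, or -0.71 with 0 higher and 1 lower in the Leydig-based scaling. Tmem14c, which moves porphyrin precursors across the mitochondrial membrane, rose by 2.78 ± 0.56 (adjusted p = 2.58e-06), and Urod, a decarboxylase of the pathway, by 1.63 ± 0.49 (adjusted p = 0.00194; -0.61 in the Leydig-based scaling). In Leydig-targeted libraries edgeR called none of the 11 iron-sulfur genes, as did DESeq2, with 1 lower at an unadjusted p under 0.05 and a median of -0.63; Nubp2 had 2 counts in KO and 8 in WT (ratio 0.203, 0.0210 to 1.02) and was called without WT replicate 3 (adjusted p = 0.0472) and in the Leydig-based scaling (-4.07, adjusted p = 0.00207). In the Leydig-based scaling 5 of the 11 were lower there. EdgeR also called none of the 6 heme genes, as did DESeq2, with 1 higher at an unadjusted p under 0.05, Urod (13 counts in KO and 1 in WT; ratio 10.6, 1.59 to 449; adjusted p = 0.0594). Urod was called without KO replicate 1 (0.0206) or WT replicate 2 (0.0348), with library size alone (0.0325) and with TMM over all genes (0.0203). Alas1, the rate-limiting enzyme, was at 0.69 ± 0.59 (adjusted p = 0.407), or -0.94 in the Leydig-based scaling.

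Leydig identity genes, given for comparison, were called higher in KO for 12 of 12 tested in sections and 6 of 12 in Leydig-targeted libraries. Over all genes, 22.6% and 7.55% were called higher. In sections Sult1e1, an estrogen sulfotransferase, was at 4.61 ± 0.59 and Ptgds, a prostaglandin synthase, at 2.83 ± 0.46. In Leydig-targeted libraries Sult1e1 was at 2.78 ± 0.66 and Vcam1, an adhesion molecule, at 2.25 ± 0.52. Scaled to these transcripts themselves, 1 and 0 of the 12 were called higher. Between Leydig-targeted libraries and sections, 1 of the 12 was called higher in KO and 5 in WT, with none lower. Over all genes, 1.91% were called higher in KO and 3.22% in WT. Dhh and Inha were at -1.61 and -1.25 in KO and at -0.86 and -0.05 in WT, none called. The list may thus not be specific to Leydig cells.

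Across the 12 libraries, log2 CPM of Fdx1 and Fdxr had a Pearson correlation of 0.72, of Cyb5a and Fdx1 0.47, and of Cyb5a and Fdxr 0.33. The genes most like each partner were ranked among tested genes, leaving out predicted or unnamed gene models, mitochondrially encoded genes and ribosomal protein genes. Over the same 12 libraries they were Maged1 (0.97), Akr1a1 (0.96) and Armcx2 (0.95) for Cyb5a, Gstk1 (0.96), Mmut (0.94) and Mapt (0.93) for Fdxr, and Eci2, Acsbg1 and Ddit4 (0.92 each) for Fdx1. These values describe 12 libraries in 4 groups that differ in depth and marker content, so they carry the group differences already given. Depth also varied within a group, from 5947 to 54882 counts in WT Leydig-targeted libraries.

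**Figure D5:**
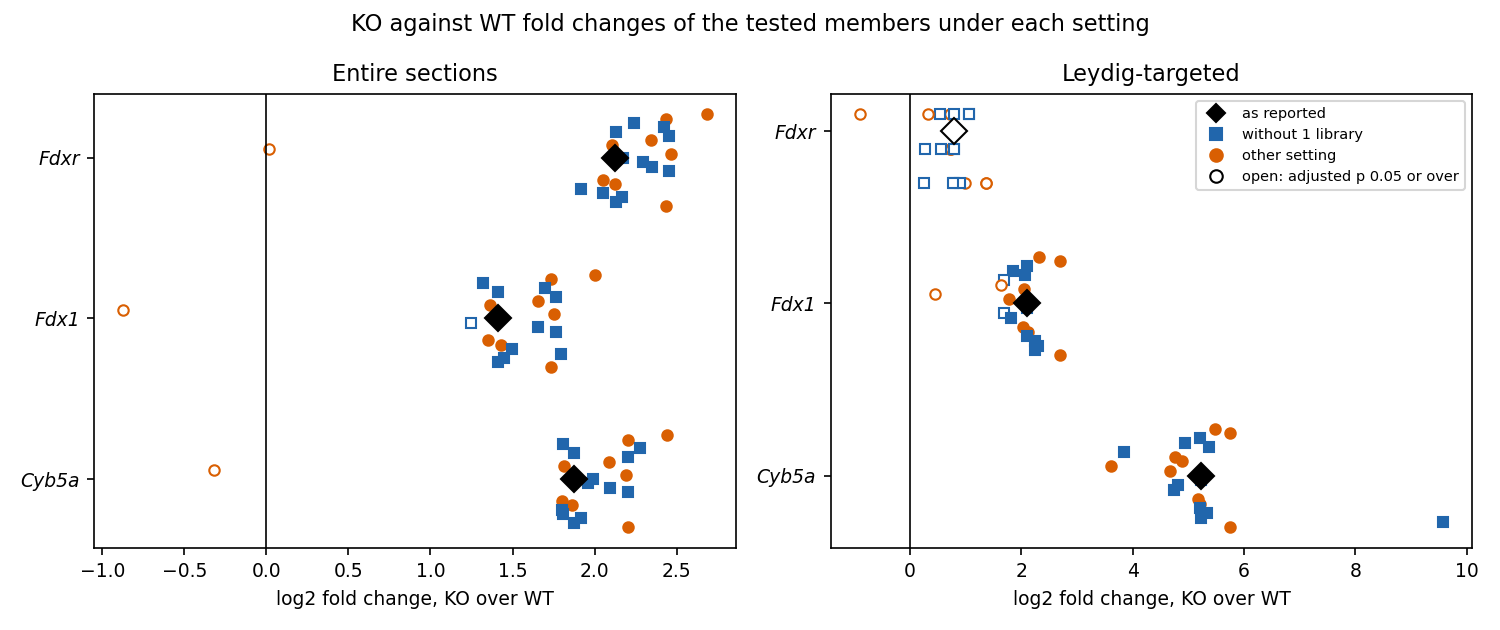
Log2 fold changes, KO over WT, of the 3 tested partners as reported (black diamonds), without 1 library (blue squares) and under other settings (orange circles); filled symbols have an adjusted p under 0.05. In sections the points at -0.32, -0.87 and 0.02 come from scaling to Leydig transcripts; in Leydig-targeted libraries Cyb5a stays called throughout, with its value at 9.58 where no WT count remains.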

How the data were processed

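Per the labels' protocols, cDNA was recovered from 10 µm sections after photo-isolation chemistry. The deposited table holds raw whole-number counts per gene, and the authors applied no normalization to it. The submitters' processing notes name featureCounts, HISAT2, Trim Galore and UMI-tools, which handles molecular barcodes, and GRCm38, with no versions. Neither the step order nor the strand setting is stated there, and antisense reads cannot be separated. Overlapping opposite-strand genes in the table had 1 count each over all libraries (Gm16146 for Cyb5a, Gm16061 for Por), and no other transcript matched 100 or more of the last 300 bases of a partner's transcripts at 90% identity (blastn 2.17.0). The GENCODE annotation of that build held all 28595 identifiers.

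The members, the gene lists and the rule for named genes were chosen with earlier results of these data known. The named genes are the partners, Star, Cyp11a1, Cyp17a1, Hsd3b1 and Hsd17b3, and up to 3 tested genes of smallest p per list. Per tested partner the rule adds the 3 tested genes most correlated over 12 libraries, without unnamed gene models, mitochondrially encoded or ribosomal protein genes. A gene that this rule names is not reported here, though it stays in every fit and count. Counts of 12 libraries entered 1 edgeR 4.0.16 fit (R 4.3.3, robust quasi-likelihood, 1 coefficient per group, TMM). Genes were kept by the expression filter with a minimum count of 10, here 66.1 CPM in at least 3 libraries, leaving 5182. Standard errors are the log2 fold change over the square root of F. P-values were Benjamini-Hochberg adjusted over all genes tested, with calls under 0.05. Correlations used log2 CPM with a prior count of 2. Ratios between genes had 0.5 added to each count and were compared by two-sided exact permutation tests. Intervals are exact 95% intervals, conditional on the sum for ratios, and floors are 3 counts; molecules amplified by PCR make both cover counting error only. The steps were also run on simulated data, with equal numbers of genes raised and lowered in a KO group. That setting is unlike these data, so it does not bear on the choice of scaling.

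Section libraries of equal number correlated across genotypes in their deviations from the group means (r = 0.243, 0.132 and 0.194 across genes). Sections of unlike number had r from -0.149 to -0.0218. The numbers were thus taken to pair the sections, though the main fit left the pairing out. Leydig-targeted pairs did not correlate (-0.00357, 0.00818 and -0.00629). This evidence is limited, since deviations within a group are not independent. WT Leydig-targeted replicate 1 and WT section replicate 2, of unlike number, had r = 0.127. Alternatives were DESeq2 1.42.0, library size alone, DESeq2 size factors, the Leydig-based scaling, no filter, 6 libraries only, a replicate block, leaving out each library and other pseudocounts. TMM over all genes and library sizes recomputed over the tested genes were added after seeing the data.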

Additional observations from a re-analysis of the deposited data

How the results depend on the processing

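In KO against WT sections, 3 partners were called in every alternative except the Leydig-based scaling (0) and the loss of WT section replicate 3 (2). Leaving out each library gave 2 to 3 partners and 2772 to 3438 genes called against 3194, with 7055 without the filter and 5238 in a fit of 6 libraries. In Leydig-targeted libraries, 2 partners became 1 in the Leydig-based scaling and with library sizes recomputed over tested genes, and 1 to 2 without 1 library. Genes called there (1476) were 2349 in the Leydig-based scaling, 825 without the filter, 173 in 6 libraries and 592 to 1501 without 1 library.

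Between regions in KO, 2 partners became 0 in the Leydig-based scaling, without the filter and with TMM over all genes, 1 with recomputed library sizes and 0 to 2 without 1 library. Genes called (282) were 468 in 6 libraries, 550 with recomputed sizes, 576 with TMM over all genes and 119 to 572 without 1 library. In WT, 2 became 1 with DESeq2, library size alone, no filter and recomputed sizes, 0 in 6 libraries, where only 1 partner was tested, and 0 to 2 without 1 library. Genes called (809) were 2286 in the Leydig-based scaling, 1602 without the filter, 346 in 6 libraries, 509 with recomputed sizes, 2058 with TMM over all genes and 382 to 867 without 1 library. The share of called genes that were higher, 35.1% in KO and 20.6% in WT with TMM, was 52.6% and 57.0% with library size alone, 10.6% and 3.50% in the Leydig-based scaling, 12.4% and 42.2% with recomputed sizes and 9.38% and 5.05% with TMM over all genes. The interaction called 17 genes, against 72 with DESeq2, 61 by library size alone, 7 without the filter, 54 with recomputed sizes and 7 to 78 without 1 library. The causes of these shifts were not tested.

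With the replicate block, 1 partner was called between regions in KO (Fdxr lost, adjusted p = 0.0693) and 1 in WT (Cyb5a lost, 0.0569), and the interaction called 9 genes; it changed no other partner call.

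Directions that turned under the Leydig-based scaling in sections were those of Cyb5a (-0.32), Fdx1 (-0.87), Cyp17a1 (-0.63), Cyp2d22 (-0.060), Cyp20a1 (-0.16), Cyb5r3 (-0.21), Nenf (-0.19) and Urod (-0.61). In Leydig-targeted libraries they were those of Fdxr (-0.90), Star (-0.70), Cyp17a1 (-0.094) and Alas1 (-0.94), with Star and Cyp17a1 part of the sum used. Cyp11a1 there turned to 0.27 without the filter and with TMM over all genes, and ranged from -1.66 to 0.25 without 1 library, being positive without WT Leydig-targeted replicate 2 or 3. Cyb5a between regions in KO turned to 0.067 with DESeq2, 0.17 by library size alone, 0.078 with DESeq2 size factors and 0.11 in 6 libraries. Without 1 library it ranged from -0.34 to 0.10, being positive without KO section replicate 1 or 2, WT section replicate 2 or KO Leydig-targeted replicate 1. The Fdx1 interaction ranged from -0.069 (without WT Leydig-targeted replicate 1) to 0.87 without 1 library and turned to -0.010 with recomputed sizes. The Leydig-based scaling moved the median of all genes to -2.59 in sections and -1.95 in Leydig-targeted libraries, and library size alone moved it to 0.22 and -0.09. Depth limits Por and every value of the WT Leydig-targeted libraries.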
